A study of Homo sapiens with 9 samples.

Results

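The 9 genes described here encode enzymes of the urea cycle and of the first steps of tyrosine and tryptophan breakdown: NAGS, CPS1, OTC, ASS1, ASL, ARG1, ARG2, TAT and TDO2. They were chosen by gene symbol from the 60683 genes of the table, each symbol matched 1 gene, and 8 of them passed the filter on low counts. Expression was measured by RNA-seq of total RNA from Hep3B, an established line of human liver cancer cells, with 3 libraries in each of 3 groups: vehicle (DMSO) at 20% O2, vehicle (DMSO) at 1% O2, and the compound 32-134D at 1% O2. The cells were exposed for 24 hours, and the replicates were biological replicates of 1 line by the labels. A single dose of 32-134D was used, which the study's paper states and the labels do not, and there was no 32-134D group at 20% O2. Hypoxia-inducible factors (HIFs) are transcription factors that accumulate when oxygen is low, and 32-134D was made as an inhibitor of them. The comparison of vehicle at 1% O2 with vehicle at 20% O2 gives the change with hypoxia, and that of 32-134D with vehicle at 1% O2 gives the change with the compound. Those comparisons share the vehicle libraries at 1% O2, so a high or low value there moves their fold changes in opposite directions.

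The urea cycle turns ammonia into urea and runs in full chiefly in periportal hepatocytes. In mitochondria, NAGS makes N-acetylglutamate, the obligate activator of CPS1, which condenses ammonia and bicarbonate into carbamoyl phosphate. OTC passes the carbamoyl group to ornithine to give citrulline. In the cytosol, ASS1 and ASL convert citrulline and aspartate to arginine and fumarate, and arginase releases urea and restores ornithine. TAT, a classic glucocorticoid-induced liver enzyme, starts tyrosine breakdown, and TDO2, the haem dioxygenase of hepatocytes, opens the indole ring of tryptophan to start the kynurenine pathway.

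Under hypoxia, 4 of the 8 tested genes fell (CPS1, ASS1, ASL and TDO2), 3 rose (NAGS, ARG2 and TAT), and ARG1 did not pass the test. Scaled to total counts, 1 rose and 4 fell. A gene was called when its false discovery rate (FDR, the Benjamini-Hochberg adjusted p of edgeR's quasi-likelihood test over all genes tested) was below 0.05 and its fold change was above 1.5. By that rule 39.7% of all 22672 genes tested were called, 19.5% higher and 20.3% lower. With 32-134D at 1% O2, CPS1, ASS1, ASL and TDO2 rose and NAGS fell, 5 of 8, where 29.9% of all genes were called, 16.2% higher and 13.7% lower. Between 32-134D at 1% O2 and vehicle at 20% O2, only ARG2 was called, 1 of 8, where 3.52% of all genes were, 3% higher and 0.516% lower.

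Library totals ran from 6013980 counts (vehicle at 20% O2, replicate 2) to 40549699, and the levels below are CPM, the counts of a gene relative to the TMM-scaled total of its library. Scaling to total counts instead made 3081 genes higher and 5848 lower under hypoxia in place of 4412 and 4595, and 4755 higher and 1847 lower with the compound in place of 3675 and 3100. It moved the median log2 fold change of all genes to -0.209 and 0.171. All 6 HIF targets checked (CA9, EGLN3, NDRG1, PDK1, BNIP3 and ANKRD37) rose under hypoxia and fell with 32-134D, CA9 from 27.9 to 579.9 and then 56.6 CPM. Against vehicle at 20% O2, 5 of the 6 were still called higher with 32-134D (83.3%, against 3.52% of all genes). Without replicate 3 of 32-134D 5 were also higher, where 3.19% of all genes were called. Hepatocyte genes summed to 18000 to 19400 CPM in vehicle at 20% O2, 13100 to 16400 in vehicle at 1% O2 and 11400 to 17700 with 32-134D. Of those 8 genes ALB, at means of 8116 to 9536 CPM, was not called in any comparison, whereas APOB went from 4487 to 405.5 and then 3520 CPM. Under hypoxia 2 of the 8 were called, both lower (25%, against 39.7% of all genes). With 32-134D against vehicle at 1% O2, 1 was called higher and 3 lower (50%, against 29.9%). Without replicate 3 of 32-134D those counts were 1 and 0, where 30.8% of all genes were called. The 5 fibroblast and stellate markers summed to 35.2 to 38 CPM, 16.9 to 18.1 and 34.5 to 43 in the same order. Among them PDGFRB ran from 9.44 to 29.3 CPM and LUM from 1.88 to 12.9, whereas COL3A1 and DCN reached only 0.0691 and 0.0717. Leukocyte markers (5 genes, CD3E at 0) summed to 27.1 to 33.8, 9.04 to 11.6 and 14.2 to 24 CPM, and the 4 endothelial markers (VWF and KDR at 0) reached 1.28 CPM at most. Of the leukocyte markers LYZ alone ran from 7.02 to 29.4 CPM, and PTPRC reached only 0.215. The 4 cholangiocyte markers summed to 920 to 1080, 1150 to 1300 and 849 to 994 CPM. The cultures were of 1 line, so these sums are given as levels of genes and do not count other cell types. The part of these shifts in the results below was not tested. In bulk RNA fewer cells expressing a gene and less of its RNA per cell cannot be told apart.

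Replicate 3 of 32-134D stood apart from its mates. Among 11527 genes, 219 were over 2-fold lower there than the mean of replicates 1 and 2, and 104 over 2-fold higher. In no other library did more than 36 genes lie that far below their mates, or more than 7 above. The hepatocyte genes AFP, TTR, FGB and TF were 2.32, 3.7, 4.85 and 2.61 times lower in it than in its mates. Fold changes and list counts with 32-134D are therefore given with and without that library.

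The 5 genes called in both the hypoxia and the compound comparison are shown with the sequence just upstream of a transcription start, since their RNA levels are what the results turn on. HIFs bind hypoxia-response elements with the core ACGTG or GCGTG, which was searched on both strands of the 250 bases before each RefSeq start (GRCh38.p14). Capitals mark a core on either strand, and each sequence is the longest stretch of the searched window outside annotated exons, 5′ to 3′.
NAGS chr17:44004470-44004545, plus strand: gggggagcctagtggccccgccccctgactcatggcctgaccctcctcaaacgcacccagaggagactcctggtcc
CPS1 chr2:210593105-210593354, plus strand: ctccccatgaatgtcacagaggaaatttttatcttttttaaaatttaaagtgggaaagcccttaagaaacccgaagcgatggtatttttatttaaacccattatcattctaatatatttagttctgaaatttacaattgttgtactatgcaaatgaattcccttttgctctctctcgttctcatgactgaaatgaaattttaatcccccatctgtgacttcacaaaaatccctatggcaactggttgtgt
ASS1 chr9:130444711-130444928, plus strand: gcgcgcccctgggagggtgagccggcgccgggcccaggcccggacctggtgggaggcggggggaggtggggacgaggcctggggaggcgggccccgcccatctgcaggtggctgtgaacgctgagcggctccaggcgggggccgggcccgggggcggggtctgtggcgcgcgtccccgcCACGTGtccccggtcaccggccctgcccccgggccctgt
ASL chr7:66075569-66075797, plus strand: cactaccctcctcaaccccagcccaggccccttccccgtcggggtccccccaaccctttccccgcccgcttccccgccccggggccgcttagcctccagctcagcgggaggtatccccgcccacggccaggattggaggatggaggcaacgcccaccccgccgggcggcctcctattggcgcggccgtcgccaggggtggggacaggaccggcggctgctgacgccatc
TDO2 chr4:155903446-155903692, plus strand: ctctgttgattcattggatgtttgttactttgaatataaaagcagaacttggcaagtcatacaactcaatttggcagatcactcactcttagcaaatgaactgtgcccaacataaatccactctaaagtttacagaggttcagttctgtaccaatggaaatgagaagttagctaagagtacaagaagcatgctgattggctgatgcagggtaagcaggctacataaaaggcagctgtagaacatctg

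The ASS1 stretch holds CACGTG, a palindrome in which ACGTG reads on either strand, at -71 and -70 from the start. The other 4 stretches hold no core, and neither did the full windows from which they were taken. CPS1 and ASS1 have further RefSeq starts, and whether a core is seen for these genes depends on the window shown. The CPS1 window at chr2:210519468-210519717 holds 3 cores, those at -46 and -45 being the strands of a single CACGTG. The ASS1 window at chr9:130444457-130444706 holds none. The CPS1 and TDO2 stretches shown lie inside the annotated genes, which begin at 210477682 and 155854738. Which start the cells use was not measured. RefSeq windows were found for 8 of the 9 genes, 11 windows in all, and TAT was not matched. A core lay in 4 of the 11, belonging to 4 of the 8 genes (CPS1 at another of its 3 starts, ASS1, ARG2 and OTC), whereas 43.2% of all 35116 windows and 47.4% of all 27305 genes had one. A match is a description of these letters only.

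The entry of nitrogen into the cycle showed opposite changes in its enzymes. NAGS (ENSG00000161653; GRCh38 chr17:44004546-44009063) stood at 3.8, 3.14 and 3.13 CPM in replicates 1, 2 and 3 of vehicle at 20% O2, at 13.1, 12.9 and 15.1 in vehicle at 1% O2, and at 4.48, 4.88 and 4.8 with 32-134D. The 3 groups did not overlap, and the hypoxic vehicle libraries were the highest. NAGS rose 4.08-fold under hypoxia, a log2 fold change of 2.03 (SE 0.143, edgeR FDR 1.89e-08). With the compound it fell by 1.54 on the log2 scale (SE 0.128, edgeR FDR 2.37e-07), and by 1.55 without replicate 3. Against vehicle at 20% O2 the 32-134D libraries were all higher, but the log2 difference of 0.49 (edgeR FDR 0.0505) was not called, nor was it without replicate 3 (edgeR FDR 0.048, under the fold threshold).

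CPS1 (ENSG00000021826; chr2:210477682-210679107), which makes carbamoyl phosphate, measured 13.6, 18.2 and 18.5 CPM in vehicle at 20% O2. It measured 1.43, 1.51 and 2.59 in vehicle at 1% O2, a 9.07-fold fall (log2 fold change -3.18, SE 0.592, edgeR FDR 0.000317). With 32-134D, replicates 1 and 2 were at 14.2 and 14.4 CPM (501 and 429 counts) and replicate 3 was at 1.05 CPM (23 counts), below every hypoxic vehicle library. The groups therefore overlapped, although the mean rose 5.47-fold (log2 fold change 2.45, SE 0.581, edgeR FDR 0.00274). Without replicate 3 the rise was 2.96 on the log2 scale (SE 0.169, edgeR FDR 1.28e-14). The groups share an estimate of spread, so that library also enters the SE of the hypoxia change. Without it the hypoxia log2 fold change was -3.19 (SE 0.165, edgeR FDR 4.66e-16). Against vehicle at 20% O2 the log2 difference was -0.73 (SE 0.506, edgeR FDR 0.419) with replicate 3 and -0.23 (SE 0.141, edgeR FDR 0.334) without it, neither called. With all libraries and no filter beyond 1 count, a similar difference of -0.71 was called lower (edgeR FDR 5.1e-05), so the lack of a call depends on the filter. The 32-134D mean of 9.9 ± 7.66 CPM (SD, n = 3) thus describes none of its libraries.

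OTC (ENSG00000036473; chrX:38352545-38421450), which makes citrulline, had no count in any of the 9 libraries. Over all 230348622 counts, 0 allows a level of up to 0.013 CPM (3 counts), which covers counting error only. OTC RNA was thus not detected in any group.

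**Figure D1:**
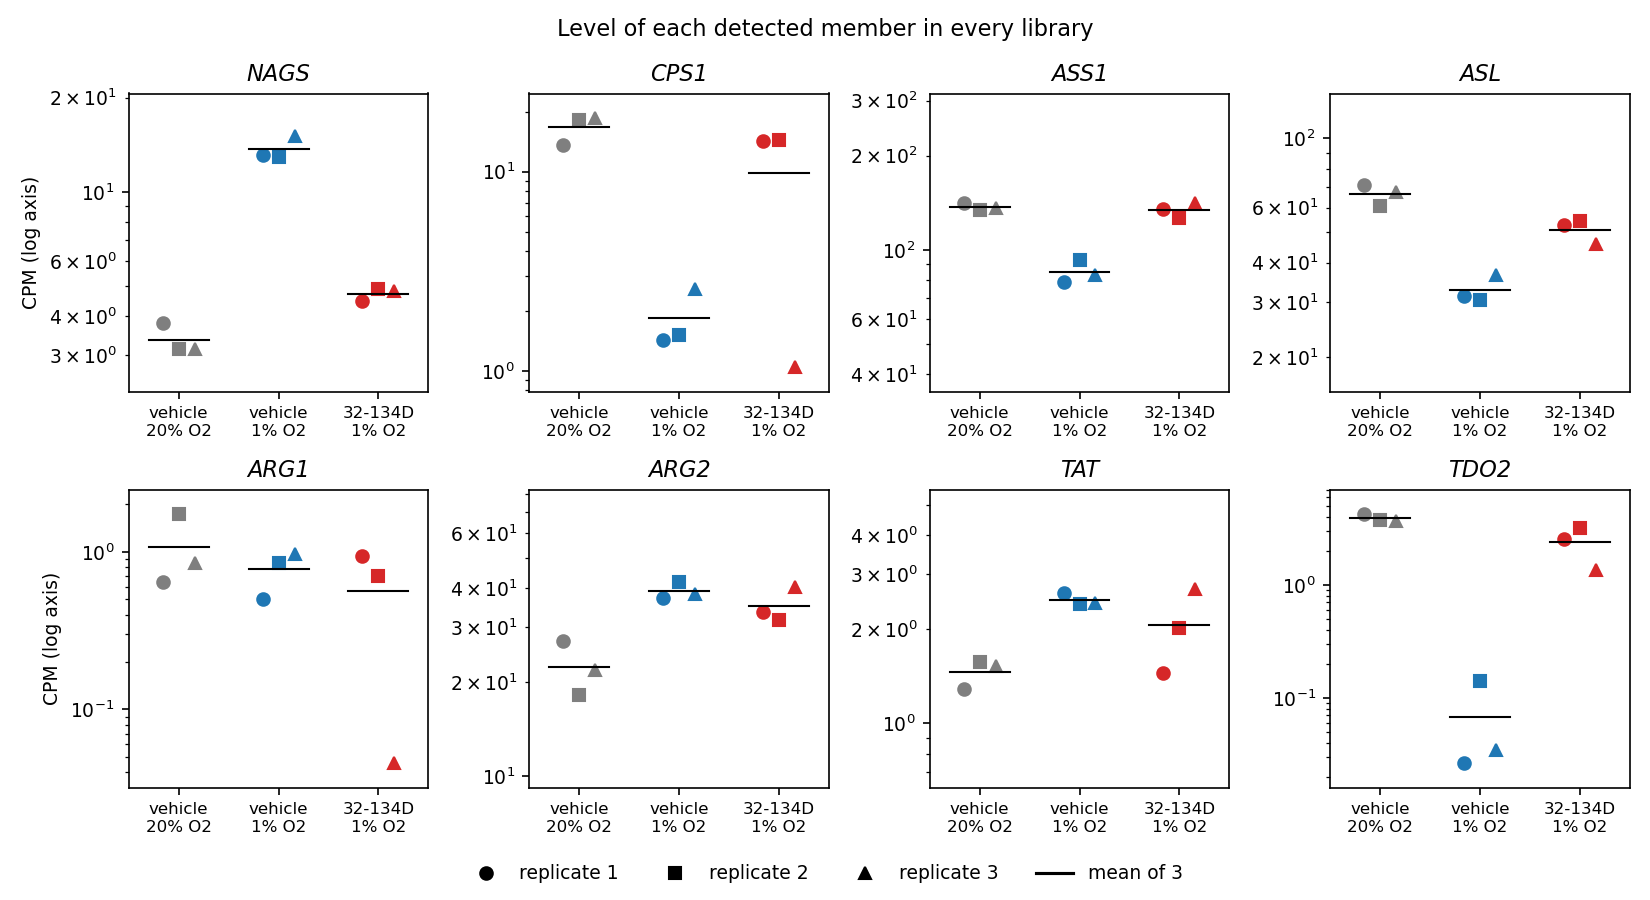
Level of the 8 detected genes in each library, in CPM on a log axis, by group. Points are libraries, with the shape giving the replicate number, and lines are means of 3. NAGS is highest in vehicle at 1% O2, CPS1 and TDO2 are lowest there apart from replicate 3 of 32-134D at 1.05 CPM for CPS1, and ARG1 in that replicate rests on 1 count.

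The cytosolic steps that make arginine fell with hypoxia by less than CPS1 and were higher again with the compound. ASS1 (ENSG00000130707; chr9:130444929-130501274), which joins citrulline to aspartate, was at 141, 134 and 136 CPM in vehicle at 20% O2, 78.8, 92.5 and 82.8 in vehicle at 1% O2, and 135, 126 and 141 with 32-134D. The hypoxic vehicle libraries lay below all 6 others. The fall was 1.62-fold (log2 fold change -0.70, SE 0.0769, edgeR FDR 2.08e-06). The rise with 32-134D was 1.58-fold (log2 fold change 0.66, SE 0.076, edgeR FDR 5.29e-06), and 0.63 on the log2 scale without replicate 3. Against vehicle at 20% O2 the log2 difference was -0.03, with a 95% interval from -0.197 to 0.129 (edgeR FDR 0.84), and -0.07 (edgeR FDR 0.632) without replicate 3. The 14 ASS1 pseudogenes in the table held 64 counts, 0.244% of the 26197 of ASS1, and reads that map to several copies were not measured.

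ASL (ENSG00000126522; chr7:66075798-66093558), which splits argininosuccinate into arginine and fumarate, was at 71, 60.9 and 67.3 CPM in vehicle at 20% O2, 31.3, 30.3 and 36.6 in vehicle at 1% O2, and 53, 54.2 and 45.8 with 32-134D. The 3 groups did not overlap, and the 32-134D libraries lay between the others. ASL fell 2.04-fold under hypoxia (log2 fold change -1.03, SE 0.0978, edgeR FDR 4.48e-07). It rose 1.56-fold with the compound (log2 fold change 0.64, SE 0.0961, edgeR FDR 6.2e-05), and 0.71 on the log2 scale without replicate 3. Against vehicle at 20% O2 it remained 1.31-fold lower (log2 difference -0.38, SE 0.0963, edgeR FDR 0.0202), which is under the fold threshold and so not a call, and by 0.32 on the log2 scale (edgeR FDR 0.0133) without replicate 3. The pseudogene ASLP1 held 247 counts, 2.26% of those of ASL, and had log2 fold changes of -1.57 under hypoxia and 1.12 with the compound, so reads shared between the copies cannot be told apart.

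The ratio of ASS1 to ASL, in CPM per kilobase of exon, was 2.08 to 2.3 in vehicle at 20% O2, 2.36 to 3.2 in vehicle at 1% O2 and 2.43 to 3.23 with 32-134D, where replicate 3 was the highest. The lowest ratio at 1% O2 was above the highest at 20% O2. With 3 libraries a group this ratio was not tested.

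**Figure D2:**
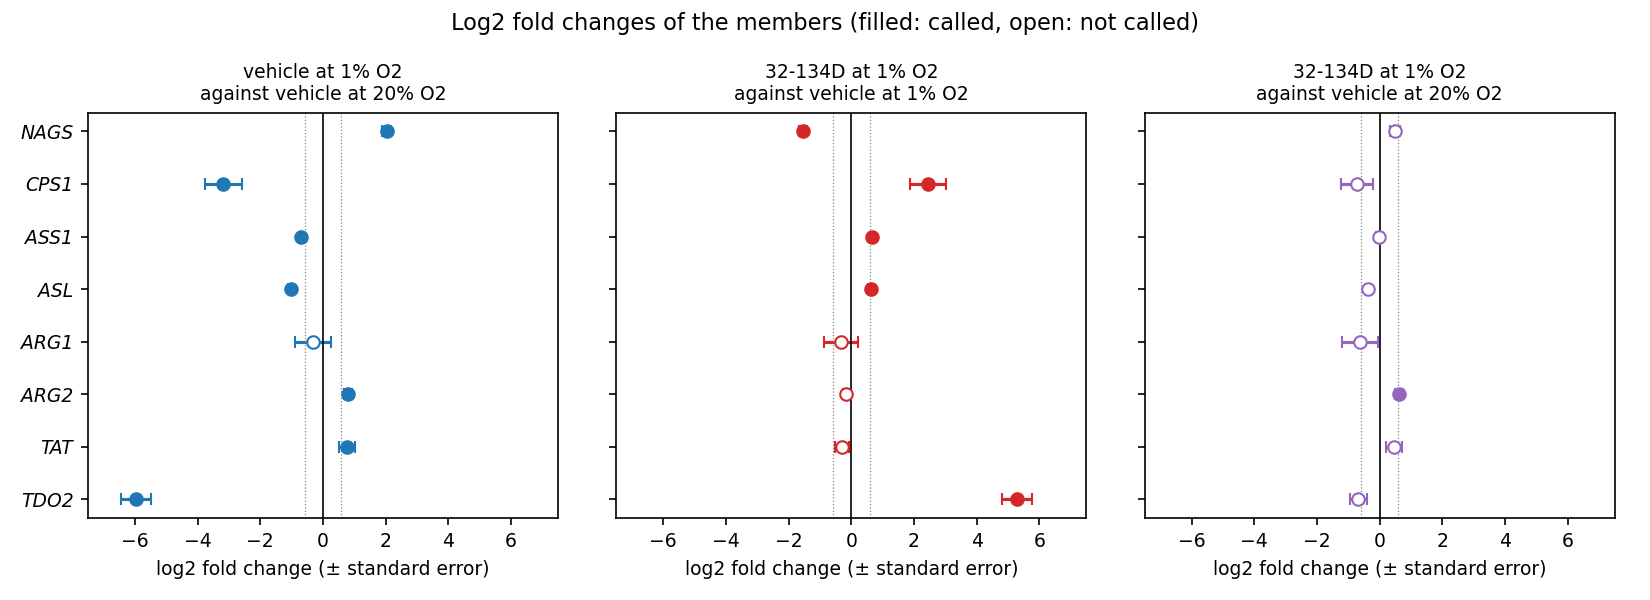
Log2 fold changes of the 8 tested genes in the 3 comparisons, with bars for the standard error. Filled points were called, open points were not, and dotted lines mark the 1.5-fold threshold. TDO2 has the largest changes, -5.97 under hypoxia and 5.29 with 32-134D, and in the third comparison only ARG2 is filled.

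The arginases differed in level. ARG2 alone was called in a comparison, and whether their responses differ was not tested. ARG1 (ENSG00000118520; chr6:131573144-131584332), the cytosolic arginase of the hepatic cycle, was at 0.645, 1.73 and 0.852 CPM in vehicle at 20% O2, 0.504, 0.849 and 0.968 in vehicle at 1% O2, and 0.936, 0.707 and 0.0457 with 32-134D. These levels rest on 168 counts in all, and the groups overlapped in every comparison. Its log2 fold change under hypoxia was -0.32 (SE 0.562, edgeR FDR 0.663). With the compound it was -0.32 (SE 0.534, edgeR FDR 0.657), turning to 0.14 (edgeR FDR 0.774) without replicate 3, which held 1 count. The 95% interval of the hypoxia difference ran from -1.52 to 0.89, which holds changes of 1.5-fold in either direction. The groups share an estimate of spread, so replicate 3 of 32-134D enters that interval. Without that library the hypoxia difference was -0.30 with a smaller SE (0.361, edgeR FDR 0.493). The difference between 32-134D and vehicle at 20% O2 was -0.64 (edgeR FDR 0.549), and -0.16 (edgeR FDR 0.858) without replicate 3.

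ARG2 (ENSG00000081181; chr14:67619798-67651720), the mitochondrial arginase found in many tissues, was at 27.1, 18.1 and 21.8 CPM in vehicle at 20% O2, 37.2, 41.8 and 38.2 in vehicle at 1% O2, and 33.4, 31.5 and 40.2 with 32-134D. All 6 libraries at 1% O2 were above the 3 at 20% O2, and the groups at 1% O2 overlapped. It rose 1.72-fold under hypoxia (log2 fold change 0.79, SE 0.129, edgeR FDR 0.000102). Scaled to total counts, that change was 0.57 on the log2 scale and under the fold threshold. Between 32-134D and vehicle at 1% O2 the log2 difference was -0.16, with a 95% interval from -0.419 to 0.104 (edgeR FDR 0.316). It was -0.26 (edgeR FDR 0.0278, under the fold threshold) without replicate 3 and 0.03 when scaled to total counts. Against vehicle at 20% O2 ARG2 was 1.55-fold higher with 32-134D (log2 fold change 0.63, SE 0.129, edgeR FDR 0.00632). That call was lost without replicate 3 of 32-134D (log2 fold change 0.51) and without replicate 2 of vehicle at 20% O2 (0.53), through the fold threshold alone. VTI1B, on the opposite strand, covers 37.4% of the exonic bases of ARG2, and the strand setting of the counting is not given in the sources used here, so their reads may not be separable. VTI1B itself had log2 differences of 0.10, -0.12 and -0.02 in the 3 comparisons, none called.

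Per kilobase, ARG2 was the more abundant arginase in every library, by 8.51 to 34.1 times in vehicle at 20% O2, by 32 to 60.2 times in vehicle at 1% O2 and by 29 and 36.1 times in replicates 1 and 2 of 32-134D. In replicate 3 the ratio of 712 rests on the single ARG1 count.

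Of the enzymes that start the breakdown of an amino acid, TAT rose and TDO2 fell with hypoxia. TAT (ENSG00000198650; chr16:71565660-71577130, minus strand) was at 1.29, 1.57 and 1.52 CPM in vehicle at 20% O2, 2.62, 2.4 and 2.42 in vehicle at 1% O2, and 1.45, 2.02 and 2.7 with 32-134D. The vehicle groups did not overlap, and the 32-134D libraries ran across them. The rise under hypoxia was 1.71-fold (log2 fold change 0.77, SE 0.252, edgeR FDR 0.018), on 78 and 220 counts a group. It was not called when scaled to total counts (log2 fold change 0.56, edgeR FDR 0.0774), without replicate 1 or replicate 3 of vehicle at 20% O2 (0.65 and 0.83, edgeR FDR 0.0812 and 0.0551), or without replicate 1 of vehicle at 1% O2 (0.73, edgeR FDR 0.0537). With 32-134D the log2 difference from vehicle at 1% O2 was -0.30 (edgeR FDR 0.292), and -0.54 (edgeR FDR 0.033) without replicate 3, under the fold threshold. From vehicle at 20% O2 it was 0.47 (edgeR FDR 0.285), and 0.23 (edgeR FDR 0.639) without replicate 3. An antisense gene, TAT-AS1, covers 7.82% of the exonic bases of TAT and held 61 counts against 468.

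TDO2 (ENSG00000151790; chr4:155854738-155920406) was at 4.23, 3.77 and 3.71 CPM in vehicle at 20% O2. It was nearly absent from vehicle at 1% O2, with 1, 3 and 1 counts (0.0265, 0.141 and 0.0346 CPM). With 32-134D it was at 2.58, 3.23 and 1.37 CPM. No libraries of different groups overlapped, and the hypoxic vehicle libraries were the lowest. From the summed counts of 205 and 5, TDO2 was 67.7 times higher in vehicle at 20% O2 than at 1% O2, with a 95% counting interval from 28.6 to 211. For 32-134D against vehicle at 1% O2, the 217 and 5 counts gave a ratio of 43.9, with an interval from 18.5 to 137. The fitted log2 fold changes were -5.97 (SE 0.475, edgeR FDR 6.58e-08) and 5.29 (SE 0.482, edgeR FDR 5.63e-07), and the latter was 5.55 without replicate 3 of 32-134D. Without replicate 2 of vehicle at 1% O2, which held 3 of the 5 counts, they were -6.81 and 6.13. Against vehicle at 20% O2 the 32-134D libraries were all lower, by 0.68 on average on the log2 scale, which was not called (edgeR FDR 0.147), and by 0.43 (edgeR FDR 0.198) without replicate 3.

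The order of the genes by level, in CPM per kilobase of exon, changed with hypoxia. In vehicle at 20% O2 the means ran from ASS1 (44.9) through ASL (20.8), ARG2 (9.24), CPS1 (1.56), NAGS (1.19), TDO2 (0.742) and ARG1 (0.547) to TAT (0.27). The ranges of CPS1 and NAGS overlapped there, as did those of TDO2 and ARG1. In vehicle at 1% O2 ARG2 (16.2) stood above ASL (10.3) and NAGS (4.85) above CPS1 (0.171), with no overlap in either pair, whereas TAT (0.459) and ARG1 (0.394) overlapped and TDO2 (0.0128) was lowest. With 32-134D ASS1 (43.9) led ASL (16) and ARG2 (14.5), which overlapped, and NAGS (1.67) stayed above CPS1 (0.919) with no overlap. CPS1, TDO2 (0.455), TAT (0.38) and ARG1 (0.286) each overlapped the next in that group. Exon lengths came from GENCODE version 29, whereas the counts used a later annotation, and a level per kilobase depends on which transcript the cells use.

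The fall in replicate 3 of 32-134D was not limited to CPS1. Taking genes whose normalized count averaged 100 or more, 9 of 89 from the 9 urea cycle and amino acid enzymes and the 8 related lists described next were over 2-fold lower there than in its mates (10.1%), and 0 were over 2-fold higher, against 1.9% lower among all 11527 genes. Besides CPS1, 13.6 times lower, they included HAL (4.53 against a mean of 29.5 CPM in its mates), NR1H4 (2.24 against 12.1), ACADSB (12.1 against 39.2), CEBPA (111 against 355), FTCD (8.51 against 24.1), GPT (3.75 against 7.99) and AMDHD1 (8.73 against 17.6). HAL, ACADSB, CEBPA and AMDHD1 are named here because of these values. NAGS, ASS1, ASL and ARG2 stayed within 2-fold of their mates. Among the detected enzymes averaging under 100 normalized counts, ARG1 and TDO2 were 18 and 2.12 times lower in replicate 3, on 1 and 30 counts. TAT was at 1.56 times its mates.

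**Figure D3:**
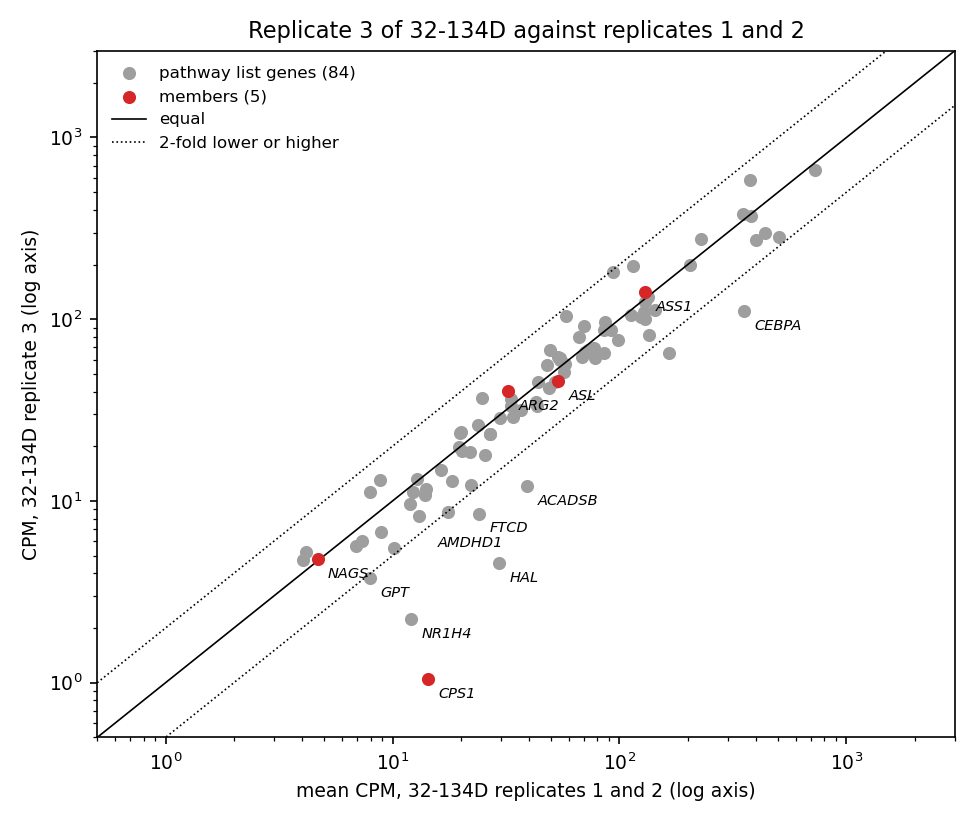
Level in replicate 3 of 32-134D (y axis) against the mean of replicates 1 and 2 (x axis), in CPM on log axes, for 84 genes of the related lists (grey) and 5 of the 9 enzymes (red) averaging 100 or more normalized counts. Dotted lines mark 2-fold, and 9 genes lie below the lower line, CPS1 the farthest at 1.05 against 14.3 CPM.

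The neighbouring pathways were followed with 7 lists of genes for nitrogen supply, arginine use and the breakdown of amino acids, 96 genes of which 92 were tested. Under hypoxia 34 of the 92 fell and 15 rose (53.3%, against 39.7% of all genes), with a median log2 fold change of -0.274 beside 0.000997 for all genes. With 32-134D 24 rose and 9 fell (35.9%, against 29.9%), with a median of 0.209 beside -0.0116. Without replicate 3 those counts were 23 and 11, where 30.8% of all genes were called. Between 32-134D at 1% O2 and vehicle at 20% O2, 5 were higher and 2 lower (7.61%, against 3.52% of all genes, 3% higher and 0.516% lower). Without replicate 3 the 4 calls were all higher, where 627 of all genes were higher and 83 lower (3.19% called). No test was made of a list as a whole.

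Genes that bring nitrogen to the cycle changed little. Of 15, 1 rose and 1 fell under hypoxia (13.3%, against 39.7% of all genes), and 1 was called with 32-134D (6.67%, against 29.9%). SLC7A1, a cationic amino acid transporter that carries arginine, rose from 61.7 ± 6.8 to 151.2 ± 14.7 CPM (SD, n = 3, log2 fold change 1.29, edgeR FDR 6.1e-05). GLUD1, the mitochondrial glutamate dehydrogenase that releases ammonia, fell from 576.9 ± 22.2 to 341.8 ± 35.5 CPM (log2 fold change -0.76, edgeR FDR 0.00104). With 32-134D the single call among the 15 was a rise of CA5A, named for being that call, on 6, 10 and 0 counts against 0 in every library of vehicle at 1% O2. Without replicate 3 there were 1 rise and 1 fall, the fall being SLC7A1 (log2 fold change -0.69, edgeR FDR 9.15e-08). SLC7A1 was at 90.8, 97.1 and 181 CPM with 32-134D, all above vehicle at 20% O2 (log2 fold change 0.99, edgeR FDR 0.00571), and the change was 0.60 without replicate 3.

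Among 18 genes that use arginine, ornithine and proline, 4 rose and 7 fell under hypoxia, and 5 rose and 3 fell with 32-134D (5 and 4 without replicate 3). With all libraries, 61.1% and 44.4% of the list were called, against 39.7% and 29.9% of all genes. ODC1, the first enzyme of polyamine synthesis from ornithine, was at 85.3, 80.2 and 82.1 CPM in vehicle at 20% O2, 511, 497 and 462 in vehicle at 1% O2, and 230, 227 and 277 with 32-134D. The groups did not overlap, and ODC1 remained 2.96-fold higher with 32-134D than in vehicle at 20% O2 (log2 fold change 1.56, SE 0.0857, edgeR FDR 6.16e-08), and by 1.46 on the log2 scale without replicate 3. OAT, the ornithine aminotransferase, was at 16.5, 18.4 and 15.6, then 58.6, 54.4 and 46.1, then 27, 24 and 17.8 CPM, and fell by 1.20 on the log2 scale with the compound (edgeR FDR 3.65e-06), a log2 fold change that was -1.05 without replicate 3. PYCR3, which makes proline, went the other way, from 28.9 ± 1.64 to 7.31 ± 0.872 CPM under hypoxia (edgeR FDR 3.25e-09) and to 20.8 ± 2.03 with 32-134D (log2 fold change 1.51, edgeR FDR 1.05e-07, and 1.58 without replicate 3).

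Among 8 genes of phenylalanine and tyrosine breakdown, 3 rose and 2 fell under hypoxia, and 2 rose and 2 fell with the compound (1 and 1 without replicate 3). With all libraries, 62.5% and 50% of the list were called, against 39.7% and 29.9% of all genes. GCH1, which starts the synthesis of tetrahydrobiopterin, the cofactor of aromatic amino acid hydroxylases, was at 20.4 ± 1.92 CPM in vehicle at 20% O2 and 40.8 ± 2.31 in vehicle at 1% O2 (SD, n = 3), a rise of 0.99 on the log2 scale (SE 0.0902, edgeR FDR 2.83e-07). PCBD1, which regenerates that cofactor, fell with 32-134D from 70.3 ± 3.33 to 40.3 ± 4.93 CPM (log2 fold change -0.80, SE 0.0896, edgeR FDR 4.03e-06, and -0.71 without replicate 3).

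Beyond TDO2, 9 of 11 genes of tryptophan and kynurenine breakdown were tested, and 1 rose and 5 fell under hypoxia (66.7%, against 39.7% of all genes). KYNU, the kynureninase, fell from 4.74 ± 0.583 to 1.29 ± 0.304 CPM (log2 fold change -1.85, edgeR FDR 0.00012). HAAO, which acts after it on 3-hydroxyanthranilate, fell from 15.8 ± 0.792 to 9.29 ± 0.285 CPM (-0.77, edgeR FDR 0.000701). With 32-134D 2 of the 9 rose and 1 fell (33.3%, against 29.9% of all genes). KYNU was among those that rose, at 3.46, 3.84 and 1.42 CPM (log2 fold change 1.16), the last within the range of vehicle at 1% O2. Without replicate 3 the counts were also 2 and 1, and the KYNU change was 1.45.

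The alanine aminotransferases moved in opposite directions. GPT, the cytosolic enzyme, was at 13.6, 10.7 and 10.2 CPM in vehicle at 20% O2, 1.96, 2.78 and 2.56 in vehicle at 1% O2, and 7.43, 8.55 and 3.75 with 32-134D. GPT2, the mitochondrial enzyme, was at 84, 84.3 and 84.5, then 267, 276 and 254, then 115, 115 and 196 CPM. GPT fell and GPT2 rose with hypoxia (log2 fold changes -2.25 and 1.66, edgeR FDR 3.15e-06 and 5.11e-07). With 32-134D GPT rose and GPT2 fell (1.47 and -0.91, edgeR FDR 0.000227 and 0.000191, and 1.74 and -1.21 without replicate 3). Their calls against vehicle at 20% O2 (-0.79, edgeR FDR 0.0497, and 0.75, edgeR FDR 0.00744) were lost without replicate 3 (-0.52 and 0.44), through the fold threshold. The GPT call was also lost through the edgeR FDR with DESeq2 size factors (0.0511), with at least 10 counts required in every library (0.0514), with only the groups compared (0.106), and without any 1 of the 6 vehicle libraries or replicate 1 of 32-134D (0.057 to 0.184). The aspartate aminotransferases GOT1 and GOT2 were not called in any comparison.

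Of the 18 genes of branched-chain amino acid breakdown, 8 fell and 1 rose under hypoxia, and 7 rose and 1 fell with 32-134D (6 and 1 without replicate 3). With all libraries, 50% and 44.4% of the list were called, against 39.7% and 29.9% of all genes. BCKDHB, a subunit of the branched-chain ketoacid dehydrogenase, went from 16.7 ± 0.846 to 3.47 ± 0.411 CPM (log2 fold change -2.26, edgeR FDR 6.58e-09) and to 12.9 ± 1.89 with the compound (1.89, edgeR FDR 8.28e-08, and 2.002 without replicate 3). ALDH6A1, the methylmalonate semialdehyde dehydrogenase of valine breakdown, went from 27.1 ± 1.6 to 5.58 ± 0.721 CPM (-2.29, edgeR FDR 1.25e-07) and to 18.9 ± 5.68 (1.78, edgeR FDR 2.39e-06, and 2.01 without replicate 3).

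In the remaining list, 20 tested genes for the breakdown of glycine, serine, sulfur amino acids, histidine and lysine, 10 fell and 4 rose under hypoxia, and 6 rose and 1 fell with the compound (7 and 2 without replicate 3). With all libraries, 70% and 35% of the list were called, against 39.7% and 29.9% of all genes. FTCD, which completes histidine breakdown, went from 36.2 ± 3.66 to 5.11 ± 0.361 CPM (log2 fold change -2.82, edgeR FDR 9.33e-07) and to 24, 24.3 and 8.51 with 32-134D (1.91, edgeR FDR 5.53e-05, and 2.25 without replicate 3). AASS, the first enzyme of mitochondrial lysine breakdown, went from 20.3 ± 1.63 to 4.97 ± 0.86 and then 16.4 ± 3.2 CPM (-2.04 and 1.73, edgeR FDR 6.65e-08 and 5.8e-07), the latter 1.87 without replicate 3. SHMT2, the mitochondrial serine hydroxymethyltransferase, was at 277, 268 and 264 CPM in vehicle at 20% O2. It was at 655, 669 and 624 in vehicle at 1% O2, and at 381, 367 and 583 with 32-134D. FTCD was lower (-0.91, edgeR FDR 0.0388) and SHMT2 higher (0.72, edgeR FDR 0.00314) with 32-134D than in vehicle at 20% O2. Without replicate 3 these were -0.58 and 0.47, under the fold threshold. The FTCD call was also lost with DESeq2 (adjusted p 0.0667), with only the groups compared (edgeR FDR 0.109) and without any 1 of the 6 vehicle libraries (edgeR FDR 0.0628 to 0.136).

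**Figure D4:**
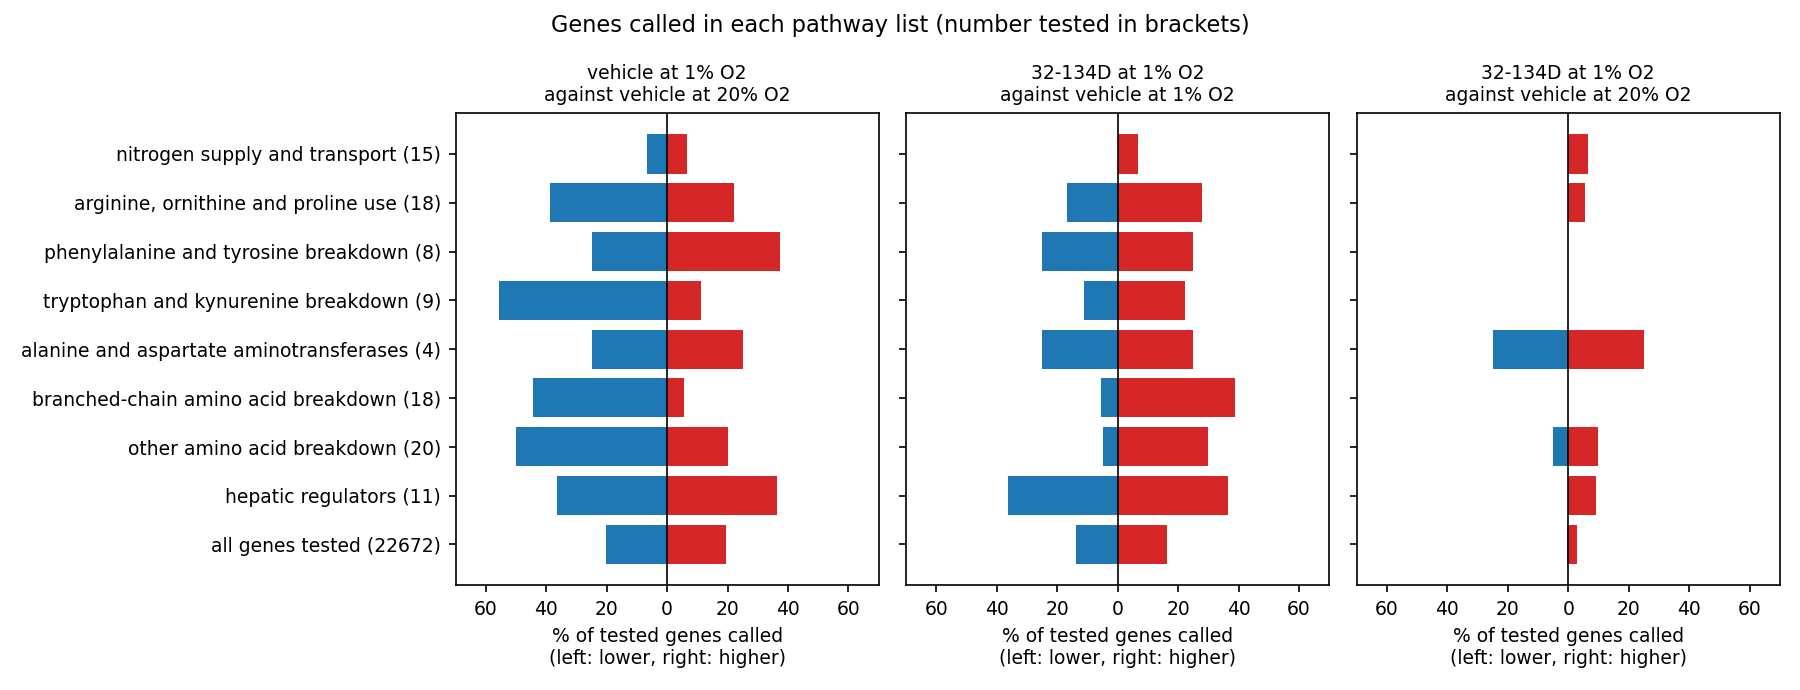
Percent of tested genes called higher (right, red) and lower (left, blue) in each of the 8 lists and among all 22672 genes tested, in the 3 comparisons, with the number tested in brackets. Calls in branched-chain breakdown are 8 lower and 1 higher under hypoxia and 1 lower and 7 higher with 32-134D, whereas nitrogen supply has 2 calls or fewer in each.

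Transcription factors and receptors known to act on such genes in liver were taken as an eighth list of 11, of which 4 rose and 4 fell in each of the first and second comparisons, also without replicate 3. In each, 72.7% of the list were called, against 39.7% and 29.9% of all genes. KLF15, a factor that drives amino acid breakdown in fasting, was at 16, 16.5 and 19.4 CPM in vehicle at 20% O2, 3.1, 3.63 and 2.9 in vehicle at 1% O2, and 13, 12.7 and 13.2 with 32-134D. It fell 5.46-fold (edgeR FDR 1.32e-09) and rose 4.05-fold (edgeR FDR 2.06e-08), a log2 fold change of 2.02, and 2.01 without replicate 3, which was level with its mates. NR1H4, the bile acid receptor FXR, fell under hypoxia from 13 ± 0.559 to 3.1 ± 0.612 CPM (edgeR FDR 0.000574). FOXO3 fell with 32-134D from 121.5 ± 3.24 to 57.1 ± 1.4 CPM (log2 fold change -1.09, edgeR FDR 7.79e-08, and -1.08 without replicate 3). CEBPB was at 25.8, 28.3 and 26.2 CPM in vehicle at 20% O2, 106, 95.5 and 90.2 in vehicle at 1% O2, and 46.3, 53 and 67.5 with 32-134D. The 32-134D libraries thus lay between the vehicle groups. CEBPB was 2.08-fold higher with 32-134D than in vehicle at 20% O2 (log2 fold change 1.06, edgeR FDR 6.59e-05, and 0.90 without replicate 3). HNF4A, a master regulator of hepatocyte identity, was at means of 381.9, 353.4 and 360.6 CPM and was not called in any comparison.

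For the 5 enzymes that averaged 100 or more normalized counts in some group, the nearest genes were those with the smallest root mean square difference in centred log2 CPM over the 9 libraries, among 11968 genes. For CPS1 they were ALDH8A1 (0.244) and SULT2A1 (0.284), which also dropped in replicate 3, to 0.64 and 1.01 CPM from 6.07 and 6.5 and from 10.1 and 10.1. For NAGS they were NGLY1 (0.0995) and PGAM1 (0.103), with NGLY1 at 26.4 to 32.7, 94.9 to 109 and 37.6 to 38.7 CPM in the 3 groups. For ASS1 they were CEP41 (0.0653) and ALDH2 (0.0655), for ASL SNRNP35 (0.0672) and EGLN2 (0.0792), and for ARG2 RABGGTB (0.101) and RPL22L1 (0.107). These are descriptions of likeness over the same 9 libraries, with no test.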

How the data were processed

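RNA-seq counts per gene were deposited by the authors as 1 table of 60683 Ensembl genes, with reads aligned by STAR and counted by featureCounts on GRCh38 per the submitters' processing notes. Versions and the strand setting are not given in the sources used here. All 9 columns were matched to samples by name (0 unmapped). Genes with fewer than 10 counts in total were dropped, which left 22672, and 27399 had no count. Groups were compared in 1 fit with edgeR 4.0.16 (R 4.3.3, TMM scaling, quasi-likelihood test, no replicate block), and calls needed an FDR below 0.05 and a fold change above 1.5. SEs were taken from the fold change and its F statistic, and 95% intervals from the t distribution with the degrees of freedom of the fit. The procedure was tested on simulated data. Totals of 6013980 to 40549699 counts set the precision, and intervals of counts cover counting error only. Replicates are biological replicates of 1 line, so p-values measure the spread between these cultures. No 2 libraries of a group agreed within sampling noise (chi-square per degree of freedom 1.62 to 36.4).

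Genes and lists were chosen with earlier results of these data known. Named genes are the 9 enzymes, up to 2 genes per list and comparison (largest called change, normalized count averaging 100 or more, no overlap), the 2 nearest patterns, the HIF targets and the markers. A gene that this rule names is not reported here. Upstream sequences are from RefSeq (GRCh38.p14) and gene positions from GENCODE version 29. DESeq2 1.42.0, other scalings, filters, thresholds, thinning, a block for the replicate number and fits without each library were the alternatives.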

Additional observations from a re-analysis of the deposited data

How the results depend on the processing

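Of the fold changes of the 8 tested enzymes, 387 values under an alternative kept their direction and their side of the threshold, 9 lost the call, 2 gained it and 4 changed sign. The sign changes were all in differences that were not called: ARG1 with the compound without replicate 3 of 32-134D (0.141, and -0.816 to 0.141 over all libraries left out), ARG2 with the compound scaled to total counts (0.03), and ASS1 between 32-134D and vehicle at 20% O2 without replicate 3 of vehicle at 1% O2 (0.024) or replicate 2 of 32-134D (0.005, and -0.073 to 0.024 over all). Among the named genes of the lists 538 values kept their call, 22 lost it and 0 changed sign. The enzymes called under hypoxia numbered 7, 6 to 7 with a library left out, 5 (1 higher and 4 lower) when scaled to total counts, and 4 at a fold change above 2. With the compound they numbered 5 whichever library was left out, and 3 above 2-fold. Between 32-134D and vehicle at 20% O2 the single call became 2 with no filter beyond 1 count (CPS1 added) or with no fold threshold (ASL added), and 0 above 2-fold or with counts thinned to the smallest library. It was 0 without replicate 2 of vehicle at 20% O2 or replicate 3 of 32-134D and 2 without replicate 1 of vehicle at 20% O2 (NAGS added). In the 8 lists, 8 of 103 genes tested were called in that comparison, beside 798 of all 22672. They became 13 of 105 with no filter and 5 of 102 in a fit of only the groups compared. With a library left out they ran from 5 to 11, and all genes called from 568 to 962. Of the 103, 57 were called under hypoxia (54 to 58 with a library left out) and 41 with the compound (37 to 42). For all genes these were 9007 (7859 to 9343) and 6775 (6063 to 6855). The cause was not tested. The count of all genes called was 5735 in place of 9007 under hypoxia above 2-fold. With the compound it was 3639 above 2-fold and 10761 with no fold threshold, in place of 6775 of 22672 tested. Against vehicle at 20% O2 it was 304 and 2324 in place of 798. Requiring at least 10 counts in every library gave 4448 with the compound, but of 12912 tested, a higher share. At that filter 35 of 88 list genes were called with the compound. The shares of all genes given beside the lists thus depend on how many low-count genes are tested.

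Libraries of the same replicate number did not deviate together (correlations of -0.208 to 0.0885 over the 3 comparisons, 0 of 9 libraries closest to their own number), so the numbers were not taken as pairs. With the replicate block, 7, 5 and 1 enzymes, 56, 41 and 8 list genes and 8671, 6486 and 785 of all genes were called.

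Depth limits ARG1 (168 counts), TAT (468) and TDO2 in vehicle at 1% O2 (5), and no detection of OTC bounds its level only to 0.013 CPM over all libraries.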
